A study of Mus musculus with 6 samples.

Results

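The segments of the TCRβ locus were read out of the raw count table of stage 0 invariant natural killer T (iNKT) cells: every row whose symbol starts with Trbv, Trbd or Trbj followed by a number. This rule found 51 of the 48397 rows of the table, 35 variable (Trbv), 2 diversity (Trbd) and 14 joining (Trbj) segments. All 51 lie on chromosome 6 of GRCm38 and matched the GENCODE M21 annotation by symbol. It lists 22 of the Trbv segments as functional and 13 as pseudogenes.

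The experiment asked how weaker TCR signaling alters early thymic iNKT cells. It compared BALB/c mice that are wild type (WT) with SKG mice, whose hypomorphic Zap70 allele, on the same BALB/c background, weakens the kinase acting just below the TCR. Both genotypes were 8 to 10 weeks old and gave 3 libraries each. About 1000 cells per library were sorted from the thymi of 3 mice, so a replicate is a pool of animals and p-values measure the spread between pools. The gate was PBS57-CD1d tetramer+, CD44-, CD24+, CD69+, CD4lo/- and CD8-. The mutation is inherited, so other cells of an SKG mouse carry it as well.

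A TCRβ chain is assembled in the thymus when the RAG recombinase joins 1 Trbd to 1 Trbj segment and then 1 Trbv segment to the product. The junction forms the third complementarity-determining region (CDR3), and the V segment itself encodes the other two loops that touch the ligand. Mouse iNKT cells pair an invariant Vα14 chain with a restricted set of β chains, known as Vβ8 (Trbv13-1, Trbv13-2 and Trbv13-3), Vβ7 (Trbv29) and Vβ2 (Trbv1). Trbv13-2 encodes Vβ8.2, Trbv13-1 encodes Vβ8.3 and Trbv13-3 encodes Vβ8.1. The 2 genomic clusters of D, J and C segments are Trbd1 with Trbj1 and Trbc1, and Trbd2 with Trbj2 and Trbc2. Trbd1 can join to either J cluster, whereas Trbd2 lies downstream of Trbj1 and joins to Trbj2.

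The 3 Trbv13 segments are the closest relatives among the iNKT segments and carry the largest share of the reads, so their second exons are shown whole, read from the GENCODE M21 transcripts (GRCm38, plus strand). They lie at chr6:41116175-41116468, chr6:41121539-41121832 and chr6:41130292-41130585. Each has 294 bases, and capitals mark the 49 positions where the 3 are not all alike.
Trbv13-1: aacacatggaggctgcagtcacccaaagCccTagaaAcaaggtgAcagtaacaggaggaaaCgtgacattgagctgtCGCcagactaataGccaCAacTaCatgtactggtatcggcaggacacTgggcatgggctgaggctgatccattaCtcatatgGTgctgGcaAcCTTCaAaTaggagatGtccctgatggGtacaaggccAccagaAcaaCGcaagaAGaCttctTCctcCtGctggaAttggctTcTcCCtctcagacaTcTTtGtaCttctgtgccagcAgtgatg
Trbv13-2: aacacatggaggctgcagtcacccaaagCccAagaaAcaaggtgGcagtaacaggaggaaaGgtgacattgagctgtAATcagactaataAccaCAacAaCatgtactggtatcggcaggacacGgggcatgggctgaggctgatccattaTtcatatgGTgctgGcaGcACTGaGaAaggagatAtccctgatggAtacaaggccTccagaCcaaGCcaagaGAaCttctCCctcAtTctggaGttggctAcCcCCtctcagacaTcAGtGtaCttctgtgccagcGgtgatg
Trbv13-3: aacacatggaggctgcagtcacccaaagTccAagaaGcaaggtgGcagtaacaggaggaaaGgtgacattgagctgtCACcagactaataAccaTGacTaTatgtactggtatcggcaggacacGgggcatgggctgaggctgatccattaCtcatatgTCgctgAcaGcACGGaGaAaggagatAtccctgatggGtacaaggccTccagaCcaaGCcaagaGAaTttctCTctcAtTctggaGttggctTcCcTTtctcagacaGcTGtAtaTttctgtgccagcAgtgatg
Without gaps, Trbv13-2 and Trbv13-3 were identical at 91.8% of these positions, Trbv13-1 and Trbv13-2 at 88.8%, and Trbv13-1 and Trbv13-3 at 86.1%. The reads were 50 nt long. Of the 50-base windows of the transcripts, 360 of 360 in Trbv13-1, 290 of 291 in Trbv13-2 and 290 of 291 in Trbv13-3 occurred in no other GENCODE transcript. The reference is C57BL/6 and the mice were BALB/c, so bases in which the strains differ are not shown here.

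The other V segments of the iNKT set are more distant. The last 60 bases of the second exon of Trbv29 (chr6:41271822-41271881) and Trbv1 (chr6:40891826-40891885) are shown with the codon of the conserved cysteine at the start of CDR3 in capitals. In the Trbv13 exons the same codon is the TGT that begins the last 16 bases.
Trbv29: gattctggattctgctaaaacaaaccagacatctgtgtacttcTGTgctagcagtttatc
Trbv1: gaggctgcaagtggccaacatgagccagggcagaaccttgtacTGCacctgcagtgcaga
Aligned from the start of the exon without gaps, Trbv29 matched Trbv13-2 at 61.6% and Trbv1 matched it at 37.4% of positions.

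Trbv reads numbered 13609 to 19269 per library, 101071 in all, against 37176544 to 43115544 reads counted on genes. In CPM, counts scaled to the TMM-normalized library total, they amounted to 467, 367 and 425 in BALB/c replicates 1 to 3 and 384, 415 and 480 in SKG replicates 1 to 3. The genotypes overlapped (exact permutation p = 0.8), and the difference of the means, 6.88, turned to -4.07 without TMM factors. Set against the reads on the constant genes Trbc1 and Trbc2, Trbv reads numbered 13.6, 15.2 and 17.03 per 100 in BALB/c and 16.4, 16.02 and 14.7 in SKG. Further values are therefore given as the share of a segment in all Trbv reads of its library, from which depth and the level of β chain mRNA drop out. A share weights each cell by its β chain mRNA, so fewer cells with a segment and less RNA per cell cannot be told apart. All permutation tests were exact and two-sided. With 3 libraries against 3, the smallest p they can give is 0.1, and 62 shares were compared.

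SKG replicate 3 stood apart from the other libraries. The distance between libraries was taken as the share of Trbv reads that would have to move to another segment to make the profiles equal. It was 15.01% and 16.3% to the other SKG libraries and 19.0% to 23.6% to the BALB/c libraries, whereas SKG replicates 1 and 2 lay 5.80% apart. Distances among BALB/c libraries ran from 10.7% to 17.3%, and those between genotypes from 8.02% to 23.6%. Differences of single segments or of summed shares that rest on SKG replicate 3 are given with and without it.

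The mean shares of Trbv13-2 and Trbv13-1, the Vβ8.2 and Vβ8.3 segments, differed between the genotypes in opposite directions. Neither segment passed the edgeR test of CPM given below. Shares that did not overlap between the genotypes made up 8.57% of the Trbv segments, these included. On an unlike base, 13.9% of all genes tested did not overlap in CPM. Trbv13-2 took 41.3%, 51.3% and 44.7% of Trbv reads across BALB/c pools and 41.0%, 40.2% and 31.7% in SKG. All 3 SKG libraries lay below all 3 BALB/c libraries, though SKG replicate 1 and BALB/c replicate 1 nearly met. Their exact Clopper-Pearson 95% intervals, 40.2% to 41.7% and 40.6% to 42.0%, overlapped. The BALB/c mean was 45.8% ± 5.08 and the SKG mean 37.6% ± 5.14 (SD, n = 3). The difference of -8.12 percentage points gave the smallest attainable p (exact permutation p = 0.1). It was -5.16 without SKG replicate 3 and -5.36 without BALB/c replicate 2, each a move of over 1.5 times.

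Trbv13-1 took 12.7%, 13.7% and 12.4% of Trbv reads across BALB/c pools and 17.03%, 19.1% and 24.3% in SKG. The BALB/c libraries were close together, and every SKG library was higher than each of them. The nearest intervals, 13.1% to 14.2% in BALB/c replicate 2 and 16.4% to 17.6% in SKG replicate 1, did not overlap. The means were 12.9% ± 0.65 (SD, n = 3) and 20.1% ± 3.72 (SD, n = 3), a difference of 7.22 percentage points (exact permutation p = 0.1). Without SKG replicate 3 it was 5.16. Intervals of single libraries cover the counting error of reads only. PCR copies of 1 molecule count as separate reads, so the intervals can be too narrow for molecules. For Trbv13-2 in BALB/c replicates 1 and 2 they lay apart, at 40.6% to 42.0% and 50.4% to 52.1%, whereas for Trbv13-1 those of BALB/c replicates 1 and 2, at 12.3% to 13.2% and 13.1% to 14.2%, overlapped.

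Trbv13-3, Trbv29 and Trbv1 overlapped between the genotypes. Trbv13-3 (Vβ8.1) took 5.88%, 3.34% and 4.72% in BALB/c and 5.76%, 6.41% and 5.42% in SKG (exact permutation p = 0.3). Trbv29 (Vβ7) took 14.98%, 8.37% and 10.3% in BALB/c and 9.92%, 11.1% and 11.2% in SKG (exact permutation p = 0.9), so the widest spread was within BALB/c. Trbv1 (Vβ2) took 10.1%, 7.04% and 9.56% in BALB/c and 8.75%, 7.17% and 11.6% in SKG (exact permutation p = 0.9). For Trbv29 and Trbv1, leaving out a single library turned the direction, as listed among the effects of processing.

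**Figure D1:**
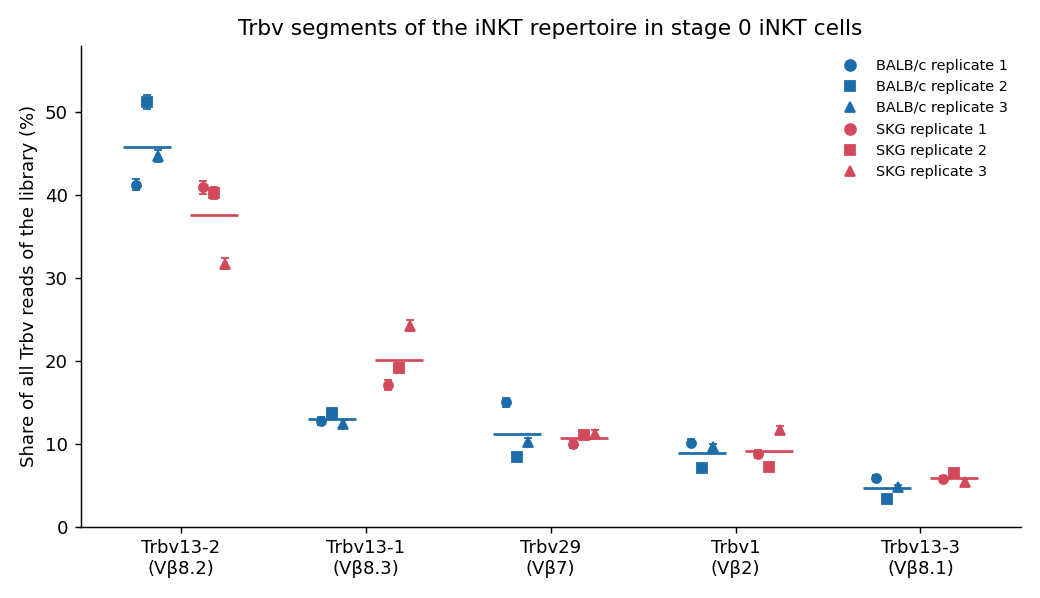
Share of each iNKT segment in all Trbv reads of a library (%, vertical axis), with 1 point per library, exact 95% intervals as bars and the mean of each genotype as a horizontal line. The SKG points lie below the BALB/c points for Trbv13-2 and above them for Trbv13-1, and overlap with them for Trbv29, Trbv1 and Trbv13-3.

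Taken as a group, Trbv13 (Vβ8) held much the same share in both genotypes, between 59.9% and 68.3% in BALB/c and between 61.4% and 65.8% in SKG. The 5 iNKT segments together took 85.002%, 83.7% and 81.7% of Trbv reads across BALB/c pools and 82.4%, 84.0% and 84.2% in SKG. The means were 83.4% ± 1.69 (SD, n = 3) and 83.6% ± 0.98 (SD, n = 3), a difference of 0.11 percentage points (exact permutation p = 1.0). Its direction turned per exonic length, to -0.02. The lower Trbv13-2 and higher Trbv13-1 shares of SKG thus stood within a total that differed by less than the spread between libraries. Shares sum to 100%, so the 2 differences are not independent of each other.

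Within the Trbv13 reads, a denominator taken up after the values were seen, Trbv13-1 made up 21.3%, 20.01% and 20.1% in BALB/c and 26.7%, 29.1% and 39.5% in SKG. Trbv13-2 made up 68.9%, 75.1% and 72.3% in BALB/c and 64.2%, 61.2% and 51.7% in SKG. Neither pair of ranges overlapped (exact permutation p = 0.1 for both), with means of 20.4% ± 0.71 and 31.8% ± 6.81 for Trbv13-1 (SD, n = 3). SKG replicate 3 held much of this: without it the difference of 11.3 percentage points for Trbv13-1 was 7.46, a move of over 1.5 times, and that of -13.1 for Trbv13-2 was -9.41. Trbv13-3 made up 4.89% to 9.82% in BALB/c and 8.83% to 9.74% in SKG.

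**Figure D2:**
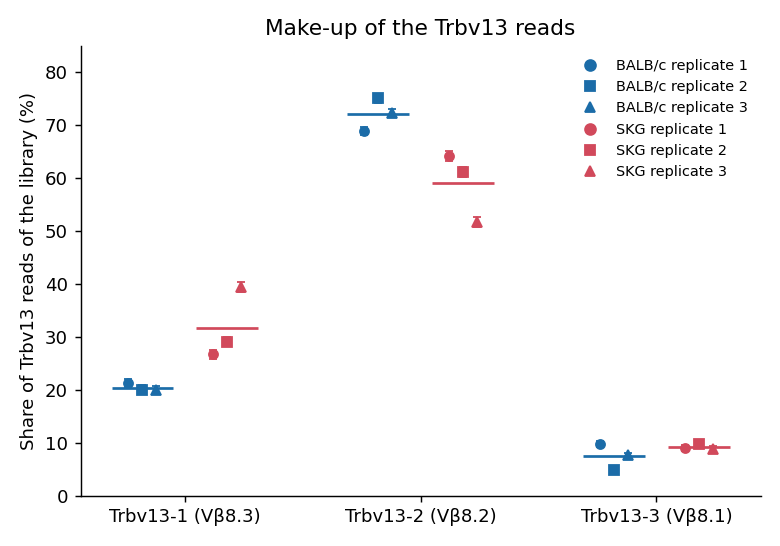
Share of Trbv13-1, Trbv13-2 and Trbv13-3 in the Trbv13 reads of each library (%, vertical axis), with exact 95% intervals as bars and genotype means as lines. The BALB/c points for Trbv13-1 sit between 20.01% and 21.3%, and the SKG points between 26.7% and 39.5%.

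Levels of segments can be set beside each other only per length, since the exons of Trbv segments run from 260 to 566 bases. Per kilobase of exon, the order of the iNKT segments was Trbv13-2, Trbv13-1, Trbv29, Trbv1 and Trbv13-3 in both genotypes. In BALB/c their shares per length were 48.8% ± 5.39, 12.8% ± 0.64, 11.5% ± 3.50, 7.75% ± 1.43 and 4.95% ± 1.36 (SD, n = 3). In SKG they were 40.3% ± 5.196, 20.1% ± 3.88, 11.1% ± 0.77, 8.03% ± 2.05 and 6.28% ± 0.49 (SD, n = 3). Trbv13-2 lay above the rest in every library of both genotypes. Trbv13-1 and Trbv29 overlapped in BALB/c but not in SKG, where Trbv13-1 was higher. The ranges of the later neighbors in the order overlapped in both genotypes. Compared within a library, Trbv29 was above Trbv1 in every library, and Trbv1 was above Trbv13-3 in every library except SKG replicate 2. Per unique 50-base window in place of length, Trbv29 and Trbv13-1 changed places in BALB/c, at 11.7% ± 3.56 and 11.4% ± 0.57 (SD, n = 3). Windows were pooled over all transcripts of a segment, giving 360 on the 366 exonic bases of Trbv13-1 and 304 on the 353 of Trbv29. Whether the change of places comes from this pooling was not tested.

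The remaining 30 Trbv segments together took 14.998% to 18.3% of Trbv reads across BALB/c pools and 15.8% to 17.6% in SKG. Of these, 6 held at least 1% of the reads summed over the libraries, namely Trbv12-2 (Vβ5.1), Trbv31 (Vβ14), Trbv19 (Vβ6), Trbv3 (Vβ16), Trbv17 (Vβ9) and Trbv2 (Vβ4), each encoding a β chain outside the usual iNKT set. Trbv31 is the V segment that lies downstream of the constant genes in inverted orientation, and it was the steadiest, at 2.19%, 2.57% and 2.74% in BALB/c and 2.61%, 2.58% and 2.83% in SKG. Trbv12-2 varied most, from 1.66%, 3.29% and 5.17% in BALB/c to 4.36%, 3.94% and 0.85% in SKG. Trbv19 took 1.33%, 3.59% and 2.31% in BALB/c and 1.53%, 2.595% and 2.91% in SKG.

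Trbv3 took 4.25%, 1.69% and 1.07% in BALB/c and 1.21%, 1.01% and 1.86% in SKG, with 819 of its 1927 reads in BALB/c replicate 1. Trbv17 took 2.32%, 1.34% and 1.71% in BALB/c and 0.70%, 1.05% and 1.84% in SKG. Trbv2 took 0.62%, 1.53% and 1.12% in BALB/c and 1.60%, 1.06% and 1.75% in SKG. All 6 of these segments overlapped between the genotypes.

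A further 15 segments with reads took 2.31% to 5.57% of the Trbv reads of a library together, and none exceeded 1.38% in any library. Of them, 5 had 0 reads in a library and over 50 in another of the same genotype: Trbv7, Trbv12-1, Trbv16, Trbv20 and Trbv23. Trbv12-1, for example, went from 186 reads in BALB/c replicate 1 to 0 in replicate 2. Over the 35 Trbv segments, 3 shares did not overlap between the genotypes, those of Trbv13-1, Trbv13-2 and Trbv21. That is 8.57% of the segments, whereas 13.9% of all genes tested did not overlap in CPM. The bases are unlike, since 9 of the 35 segments had no reads and could not separate, while the genes tested had passed a filter on low counts. Trbv21 was singled out after its values were seen and collected 0, 0 and 6 reads across BALB/c pools and 7, 46 and 71 in SKG, at most 0.41% of a library. Its difference of 0.24 percentage points was 0.15 without SKG replicate 3.

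The other 9 segments, all annotated pseudogenes, had 0 reads in every library. In the library with the fewest Trbv reads this allows a share of up to 0.022%, at 3 reads. Of the 4 pseudogenes with reads, Trbv24 (Vβ17) held most, at 0.44% to 1.38% per library, and the pseudogenes together took 0.44% to 1.38%. Trbv4 (Vβ10) and Trbv5 (Vβ1) share exons with the overlapping gene 5830405F06Rik and had only 27.9% and 22.6% unique windows, so their low shares, at most 0.48% and 0.07%, are uncertain. The counting ignored strand, so reads of antisense RNA cannot be told from those of a segment.

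**Figure D3:**
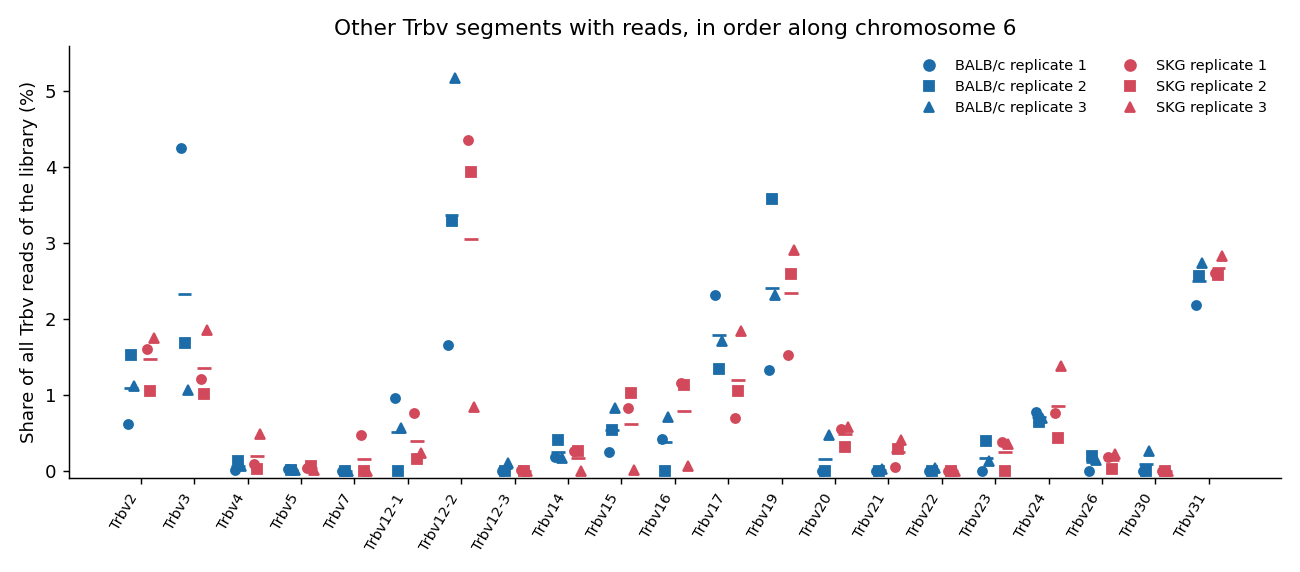
Share of each Trbv segment outside the iNKT set in all Trbv reads of a library (%, vertical axis), for segments with at least 1 read, with 1 point per library and lines at the genotype means. Trbv31 varies least among those over 1%, between 2.19% and 2.83%, while Trbv12-2 runs from 0.85% to 5.17%.

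The number of Trbv segments with at least 1 read was 18, 18 and 25 in BALB/c and 24, 21 and 21 in SKG. The effective number of segments, the inverse Simpson index of the shares, was 4.42, 3.35 and 4.13 in BALB/c and 4.52, 4.47 and 5.22 in SKG. The groups did not overlap, with means of 3.97 ± 0.55 and 4.74 ± 0.42 (SD, n = 3; exact permutation p = 0.1). The index is governed by the most used segment, and its difference of 0.77 was 0.46 without BALB/c replicate 2. The exponential of the Shannon entropy, which gives rare segments more weight, overlapped, at 5.84 to 7.06 in BALB/c and 6.97 to 7.51 in SKG (exact permutation p = 0.2).

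Trbd segments are the shortest in the locus, so both are shown whole, with no bases marked. Trbd1 lies at chr6:41533201-41533212 and Trbd2 at chr6:41542163-41542176.
Trbd1: gggacagggggc
Trbd2: gggactgggggggc
They are 12 and 14 bases long, shorter than a read, and a read counted on them must also cover bases outside. Only 40 to 82 reads per library fell on them, 373 in all. Trbd2 took 83.8%, 80.4% and 72.5% of these in BALB/c and 74.0%, 65.3% and 95.1% in SKG. The genotypes overlapped, and SKG replicate 3 was again the most extreme library.

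Trbj segments encode the end of CDR3 and the framework strand behind it. The segments with the most reads are shown with the Phe-Gly motif of J segments in capitals, found as TTTGGNNNNGG or TTCGGNNNNGG. The motif was present on the coding strand in 11 of 14 Trbj segments and on the opposite strand in 0. Of the segments without it, Trbj1-7 and the annotated pseudogene Trbj2-6 are shown for contrast.
Trbj1-4: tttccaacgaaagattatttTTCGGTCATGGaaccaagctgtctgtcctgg
Trbj1-5: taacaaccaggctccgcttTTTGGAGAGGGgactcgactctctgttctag
Trbj2-7: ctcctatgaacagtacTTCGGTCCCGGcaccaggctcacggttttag
Trbj1-7: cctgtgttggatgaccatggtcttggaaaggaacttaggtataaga
Trbj2-6: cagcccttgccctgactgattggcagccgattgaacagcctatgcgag
They lie at chr6:41534811-41534861, chr6:41535084-41535133, chr6:41543810-41543856, chr6:41535642-41535687 and chr6:41543598-41543645. Trbj1-6 also lacked these letters, which says nothing of its function.

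All 14 Trbj segments had reads in all libraries, 1993 to 3236 per library. They are 46 to 54 bases long, near the length of a read, so a read overlapping one mostly reaches beyond it. Trbj2-6, annotated as a pseudogene, was the most counted, with 597 of the 2985 Trbj reads of BALB/c replicate 1, 21.2% and 19.2% in the other BALB/c pools and 21.4%, 23.0% and 17.5% in SKG. With a pseudogene the most counted, Trbj shares cannot be read as shares of the J segments joined in receptors. Trbj1-5 took 12.6%, 14.1% and 13.3% in BALB/c and 14.3%, 14.1% and 13.4% in SKG, the steadiest of the segments over 10%.

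Trbj2-7 took 14.3%, 9.11% and 13.1% in BALB/c and 16.4%, 14.4% and 11.2% in SKG. Trbj1-4 took 11.7%, 11.3% and 10.6% in BALB/c and 8.75%, 8.17% and 11.9% in SKG. Trbj1-2 took 11.7%, 6.51% and 5.07% in BALB/c and 5.27%, 3.79% and 2.63% in SKG. All but 1 SKG library lay below the BALB/c libraries for Trbj1-2, with means of 7.76% ± 3.48 and 3.89% ± 1.32 (SD, n = 3; exact permutation p = 0.2). The difference of -3.86 percentage points was -1.89 without BALB/c replicate 1.

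Trbj1-3 ran from 6.01% to 10.7% in BALB/c and from 4.94% to 8.75% in SKG, Trbj1-6 from 6.77% to 9.71% and from 6.42% to 7.65%, and Trbj1-7 from 3.85% to 7.06% and from 4.38% to 6.51%. No single Trbj share separated the genotypes. Trbj2-2, singled out after its values were seen, took 10.6% of Trbj reads in SKG replicate 3 and 1.07% to 3.06% in the other 5 libraries.

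Summed by cluster, Trbj2 took 40.8%, 44.7% and 47.7% of Trbj reads across BALB/c pools and 49.5%, 52.2% and 53.0% in SKG, and Trbj1 took the rest. Every SKG library was above every BALB/c library, with means of 44.4% ± 3.48 and 51.6% ± 1.84 (SD, n = 3). The difference of 7.17 percentage points gave the smallest attainable p (exact permutation p = 0.1). It was 6.45 without SKG replicate 3 and 8.52 with the Trbj2-6 pseudogene left out of the counts. These are differences in counted reads and do not measure which J segments were joined. Of the constant genes, Trbc1, which follows the Trbj1 cluster, took 40.8%, 39.6% and 39.1% of Trbc reads across BALB/c pools and 37.3%, 36.8% and 33.0% in SKG, also without overlap (exact permutation p = 0.1). The difference of -4.12 percentage points was -2.76 without SKG replicate 3. The Trbc comparison was made after the Trbj values were seen, and unique windows were not counted for Trbc1 and Trbc2.

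**Figure D4:**
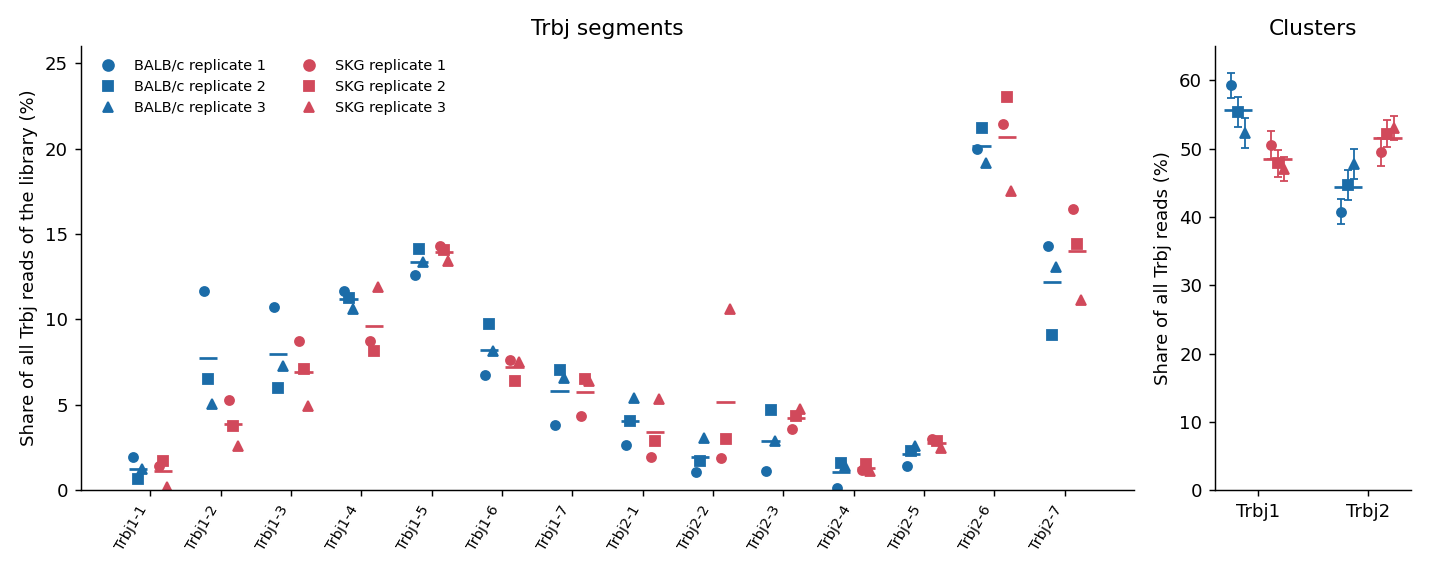
Share of each Trbj segment (left) and of each Trbj cluster (right) in all Trbj reads of a library (%, vertical axes), with 1 point per library, lines at the genotype means and, for the clusters, exact 95% intervals. Single segments overlap between the genotypes, while the Trbj2 cluster runs from 40.8% to 47.7% in BALB/c and from 49.5% to 53.0% in SKG.

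Expression levels of the segments, as CPM, were then compared with edgeR's quasi-likelihood F test over all 12312 genes that passed the filter on low counts. This took in 36 of the 51 segments, 20 Trbv, 2 Trbd and 14 Trbj. With an FDR threshold of 0.1 and a minimum fold change of 1.5, 0 segments were called, against 0% of all genes tested (0 of 12312, lowest adjusted p 0.212 by edgeR). DESeq2 called 0 segments, against 2.58% of genes (370) without and 1.67% (231) with shrunken fold changes, and limma-voom called 0 segments and 0 genes. At an unadjusted p under 0.05, edgeR counted 0 of the 36 segments, against 5.45% of all genes. At that level DESeq2 counted 3 of 41 segments without shrinkage (7.32%, against 5.91% of 24420 genes), namely Trbv13-1, Trbv21 and Trbj2-2, and 2 with it (4.88%, against 4.71%). Limma-voom counted 0 of 36, against 7.86% of genes.

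The CPM of the genotypes did not overlap for 3 segments, 8.33% of the 36, against 13.9% of all genes tested. These were Trbv13-1, Trbj2-5 and, in the other direction, Trbv13-2. Trbv13-1 had 54.1 ± 4.83 CPM in BALB/c and 87.2 ± 26.4 in SKG (SD, n = 3), a log2 fold change of 0.69 ± 0.29 (SE; adjusted p = 0.931, edgeR). It had the lowest p of the higher segments, and the log2 fold change was 0.44 without SKG replicate 3. Trbv13-2 had 190 ± 2.37 CPM in BALB/c and 159 ± 7.58 in SKG, a log2 fold change of -0.26 ± 0.14 (SE; adjusted p = 0.959, edgeR), the lowest p of the lower segments. Trbj2-5 had 1.145 ± 0.10 and 1.92 ± 0.28 CPM.

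Trbv13-3, with a log2 fold change of 0.32 ± 0.52 (SE), Trbv29, with -0.07 ± 0.40, and Trbv1, with 0.07 ± 0.43, were within their errors of 0. Fold changes were positive for 26 and negative for 10 of the 36 segments, with a median log2 fold change of 0.31, against -0.02 over all genes tested. By class, the median was 0.16 for Trbv and 0.32 for Trbj, and 7 of 7 Trbj2 segments but 4 of 7 Trbj1 segments were above 0. Trbj reads summed to 72.4, 53.9 and 44.1 CPM in BALB/c and 58.4, 60.5 and 89.5 in SKG (exact permutation p = 0.4). SKG replicate 3 was the highest, and how many segments stay above 0 without it is not given here. No segment of either class passed the test.

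**Figure D5:**
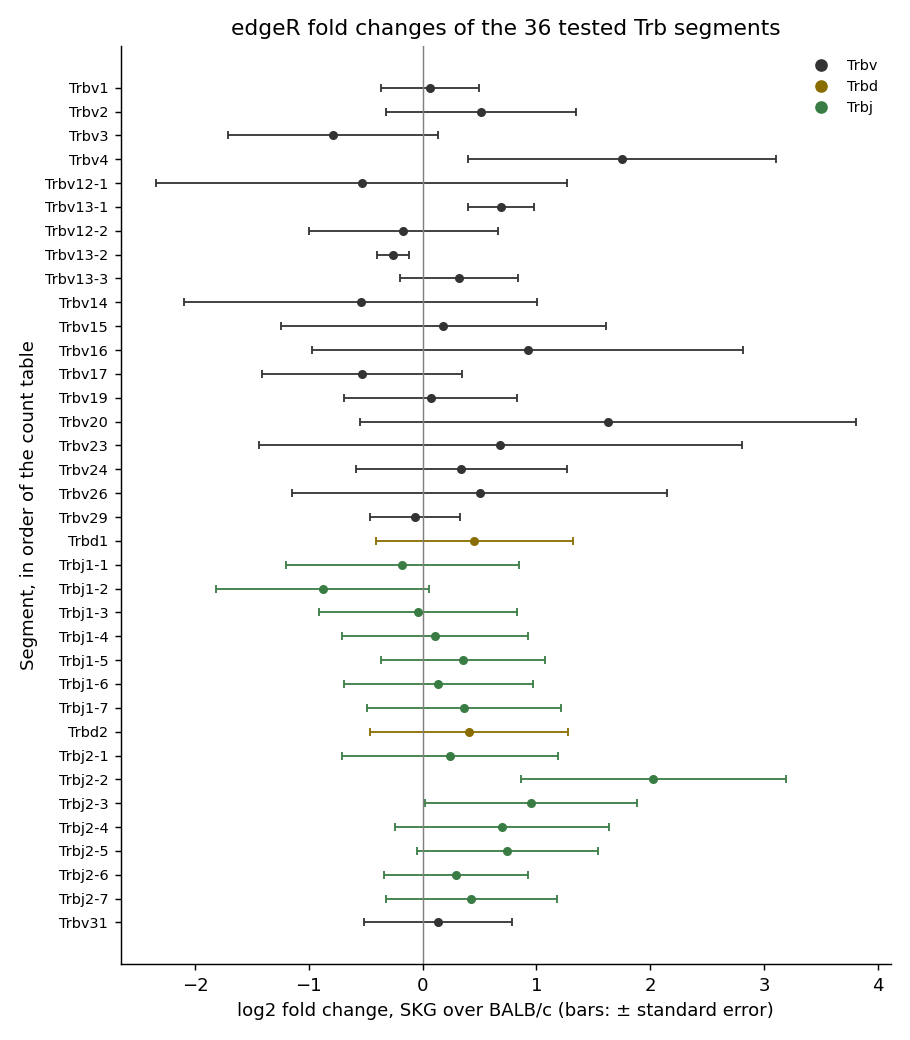
Log2 fold change of SKG over BALB/c (horizontal axis) from edgeR for the 36 tested segments, in the order of the count table, with bars of 1 standard error. Trbv13-1 (0.69) and Trbv13-2 (-0.26) have the narrowest bars relative to their distance from 0, and none of the segments passed the test.

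Other genes of the receptor and of its assembly were read out as fixed lists. Of 7 tested genes of the TCR complex (Trbc1, Trbc2, Trac, Cd3d, Cd3e, Cd3g and Cd247), 0 passed the test and 0 reached an unadjusted p of 0.05 by edgeR, with a median log2 fold change of -0.02. Of 13 tested genes of V(D)J recombination, 0 passed and 1 reached that level, against 5.45% of all genes tested. It was Xrcc5, which encodes the Ku80 subunit of the end-binding complex of DNA repair (log2 fold change -1.02 ± 0.25, SE; adjusted p = 0.671, edgeR). Xrcc6, on the same list, had a log2 fold change of 0.07 ± 0.40 (SE). Over the list, 5 fold changes were positive and 8 negative. Rag1, a subunit of the recombinase, collected 1438, 83 and 4 reads across BALB/c pools and 0, 379 and 34 in SKG, so it varied among pools of 1 genotype. Dntt, the polymerase that adds untemplated bases to the junctions, collected 3595, 759 and 146 reads across BALB/c pools and 266, 1615 and 1135 in SKG.

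Markers of other cells that use or lack these segments were summed beside these results. Defining genes of iNKT cells were present in all libraries, with 803 to 1264 reads on Trav11d and 43 to 88 on Traj18, segments of the invariant chain. Trav11, also on the list, had only 1 to 7 reads per library and was not tested. The summed CPM of 9 stage 0 iNKT genes did not overlap, at 3300 to 4079 in BALB/c and 2808 to 3203 in SKG, but did without Egr2, at 2145 to 2533 and 1925 to 2410. Of the 8 tested, 0 passed the test. Cd24a, a marker of the gate, had a positive log2 fold change of 1.49 (adjusted p = 0.959, edgeR). An unadjusted p under 0.05 was found for 2 of the 8, against 5.45% of all genes tested by edgeR. These were Cd69 (log2 fold change -0.87; adjusted p = 0.686, edgeR) and Egr2 (-0.80; adjusted p = 0.834, edgeR). Markers of double-positive thymocytes, which rearrange a broad repertoire, summed to 72.5 to 467 CPM in BALB/c and 107 to 244 in SKG, although the CD8- gate should remove such cells. The sum was highest in BALB/c replicate 1, which also had the highest Trbv29, Trbv3 and Trbj1-2 shares and the lowest Trbv13-2 share of its genotype. Across all libraries, BALB/c replicate 1 also had the highest share of the iNKT set, 85.002%, and the lowest share of the other Trbv segments, 14.998%. Myeloid markers summed to 3.72 to 64.8 and 5.83 to 153 CPM, highest in SKG replicate 3. Markers of γδ T cells summed to 7.79 to 21.5 and 15.7 to 20.6 CPM. Trdc alone collected 289 to 886 reads per library. Trgv2, Sox13 and Blk had reads in some libraries, and Trdv4 was at 0 throughout. Trgc1 and Trgc2 were listed but were not among the counted genes. The part of other cells in the shares was not tested.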

How the data were processed

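PolyA RNA from 3 BALB/c and 3 SKG libraries was sequenced by the authors as 50-nt reads. The labels name the SMART-Seq v4 kit and the methods the SEQR kit; which was used could not be settled. The authors aligned reads to GRCm38 with HISAT2 2.1.0 and deposited raw counts per gene from featureCounts (Subread 1.4.4; Ensembl release 85; unstranded; mapping quality of at least 10). A deposited table of the authors' DESeq2 1.14.1 comparison (fold changes, p-values) was not used.

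Counts were fitted on all 6 libraries without covariates in R 4.3.3 with edgeR 4.0.16 (filterByExpr, TMM, quasi-likelihood F test, Benjamini-Hochberg over 12312 genes; FDR under 0.1 and fold change of at least 1.5, the study's thresholds), tested on simulated data. The simulated data were far less dispersed than these (common dispersion 0.84), so that test does not show the power of the fits here. Alternatives used DESeq2 1.42.0 and limma 3.58.1. Depth was 37176544 to 43115544 counted reads. Shares were tested by exact permutation, two-sided (scipy 1.17.1), with Clopper-Pearson 95% intervals. Residuals of same-numbered libraries correlated at -0.145 to 0.00289, so libraries were not paired.

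Members and gene lists were chosen with earlier results of these data known. Segments named with values are the 5 of the iNKT set, other Trbv of at least 1% and Trbj of at least 5% of reads, both Trbd, and the lowest edgeR p in each direction. Sequences and positions are from GENCODE M21 (GRCm38). The result of 1 marker list is not reported here.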

Additional observations from a re-analysis of the deposited data

How the results depend on the processing

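The count of called segments was 0 under every alternative fit, including the replicate block by title number or by library number. Over all genes, the count of calls rose from 0 to 2 without the filter on low counts, to 370 with DESeq2 and to 231 with its shrunken fold changes. The lower Trbv13-2 and higher Trbv13-1, Trbv13-3 and Trbj2 shares and the higher effective number kept their direction under all alternatives run, with ranges over left-out libraries of -10.4 to -5.16, 5.16 to 8.77, 0.56 to 1.84 and 5.35 to 8.83 percentage points and 0.46 to 1.00 segments. Differences near 0 changed sign, and the cause was not tested. Per unique 50-base window of the transcripts, the Trbv13 total differed by -0.45 and the iNKT set by -0.48 percentage points. This alternative was added after seeing the data, and it pooled windows over all transcripts of a segment, giving 360 on the 366 exonic bases of Trbv13-1. Per exonic length the iNKT set differed by -0.0244. Trbv CPM differed by -4.07 without TMM factors. The log2 fold change of Trbv29 was 0.0082 with the replicate block by title number and 0.10 by library number, while the block changed no call. With libraries left out, share differences ran from -0.96 to 1.27 for Trbv1, -1.89 to 1.41 for Trbv29, -1.41 to 2.78 for Trbv13 and -0.79 to 0.88 for the iNKT set. Trbv1 turned without BALB/c replicate 2 or SKG replicate 3, and Trbv29 without BALB/c replicate 1. Trbv CPM ran from -19.9 to 30.6, and log2 fold changes from -0.25 to 0.26 for Trbv1 and -0.31 to 0.31 for Trbv29. With libraries left out, an alternative added after seeing the data for these, the differences within Trbv13 and those of Trbv21, Trbj1-2 and Trbc1 kept their direction. In all, 199 alternative values kept their side and direction and 21 reversed. The planned count of unique windows over the whole genome was not run, and transcripts were used in its place. PCR copies cannot be told apart, so the number of molecules behind the 13609 to 19269 Trbv reads per library is unknown.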
